A study of Rattus norvegicus with 10 samples.

Results

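The genes described here encode a transcription factor, enzymes and transporters by which kidney cells cope with salty and urea-rich surroundings: Nfat5, Akr1b1, Sord, Slc6a12, Slc6a6, Slc5a3, Slc14a1 and Slc14a2. They were chosen by gene symbol, and 7 of the 8 had a row in the table of 32545 genes; Slc5a3, the sodium/myo-inositol cotransporter, was not analysed here. The RNA was extracted from renal cortex of SS/JrHsdMcwi rats, the Dahl salt-sensitive strain, which is inbred and becomes hypertensive when fed salt. The libraries formed 2 groups: 5 from rats given 4% NaCl with 2% oxonic acid, an inhibitor of the urate-degrading enzyme uricase, and 5 from rats given 4% NaCl with vehicle, each for 3 weeks. All rats had eaten 0.4% NaCl before, carried a telemeter implanted at 8 to 9 weeks of age, and are labelled wild type, and the kidneys were perfused before harvest. Male and female rats were used, and the sex behind a given library is not labelled. The labels number the libraries within a group without naming the rat behind each, so p-values refer to the scatter among these libraries, which may be in part technical.

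Cells of the renal medulla live in interstitial fluid that is far saltier and richer in urea than plasma. They answer by raising NFAT5 (also called TonEBP), a transcription factor that switches on genes for organic osmolytes: aldose reductase (Akr1b1) makes sorbitol, and carriers import betaine (Slc6a12), myo-inositol (Slc5a3) and taurine (Slc6a6). Urea itself is moved by UT-B (Slc14a1), known from red cells, descending vasa recta and urothelium, and by the UT-A family (Slc14a2), known from the inner medullary collecting duct and the thin descending limb. Most of these genes are therefore expressed more strongly in the medulla than in the cortex.

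Each library held 14536674 to 18508428 reads assigned to genes. Levels are FPKM, fragments per kilobase of gene length scaled to library size by the authors, and differences between groups are of log2(FPKM + 0.5), oxonic acid minus vehicle, which understates changes at low levels. A gene passed at a limma adjusted p under 0.05 over the 14508 genes tested. Transcripts of the mitochondrial genome took 11.6 to 13.5% of reads with oxonic acid and 9.23 to 12.1% with vehicle. Markers of the labelled tissue were present: of 10 genes typical of cortex, such as the proximal tubule phosphate carrier gene Slc34a1 (1597 to 2021 FPKM under oxonic acid and 1441 to 1929 FPKM under vehicle), Pvalb was the exception, listed at 0 in all libraries but vehicle library 4. Oxonic acid library 3 had the highest value of 4 of the 7 genes, and vehicle library 4 stood apart from the other vehicle libraries for Akr1b1 and Slc14a2 and from all others on the first principal component of all genes (39.8 against -13.7 to 15.5). Results that rest on these libraries are given with and without them.

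Across the libraries the 7 genes spanned more than 2 orders of magnitude. Sord averaged 295 FPKM over all 10 libraries, Slc6a6 27.3, Akr1b1 26.9, Nfat5 9.90, Slc14a2 1.70, Slc6a12 1.06 and Slc14a1 0.969 FPKM. Sord was above Slc6a6, and Akr1b1 above Nfat5, in 10 of 10 libraries without overlap of their ranges. Slc6a6 was above Akr1b1 in 8 of 10, the exceptions being oxonic acid library 3 and vehicle library 4, where Akr1b1 was highest. Without oxonic acid library 3, Slc6a6 averaged 26.9 FPKM and Akr1b1 19.4 FPKM, so their similar means over 10 libraries rest on that library. The ranges of the 3 genes at the low end overlapped, and their order is not settled. Nfat5 was above Slc14a2 in 9 of 10 libraries, oxonic acid library 3 being the exception. All 7 entered the test, but Slc14a2 did so only through oxonic acid library 3, since the mean of its 2 table rows over the other 9 libraries was 0.117 and 0.330 FPKM, under the minimum of 0.5.

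None of the 7 genes passed (limma), and 0% of all tested genes passed in either direction. The difference was above 0 for 6 of the 7 genes, with a median of 0.26 on the log2 scale, and for 5 of 6 without Slc14a2, which entered through 1 library, with a median of 0.22. Over all genes it was above 0 for 51.8%, with a median of 0.0053. These counts and medians describe the genes and are not a test. An unadjusted p under 0.05 was reached by 1 of the 7 genes, Nfat5, and by 9.49% of all genes. The ranges of the groups overlapped for each of the 7 genes and did not overlap for 1.91% of all genes.

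**Figure D1:**
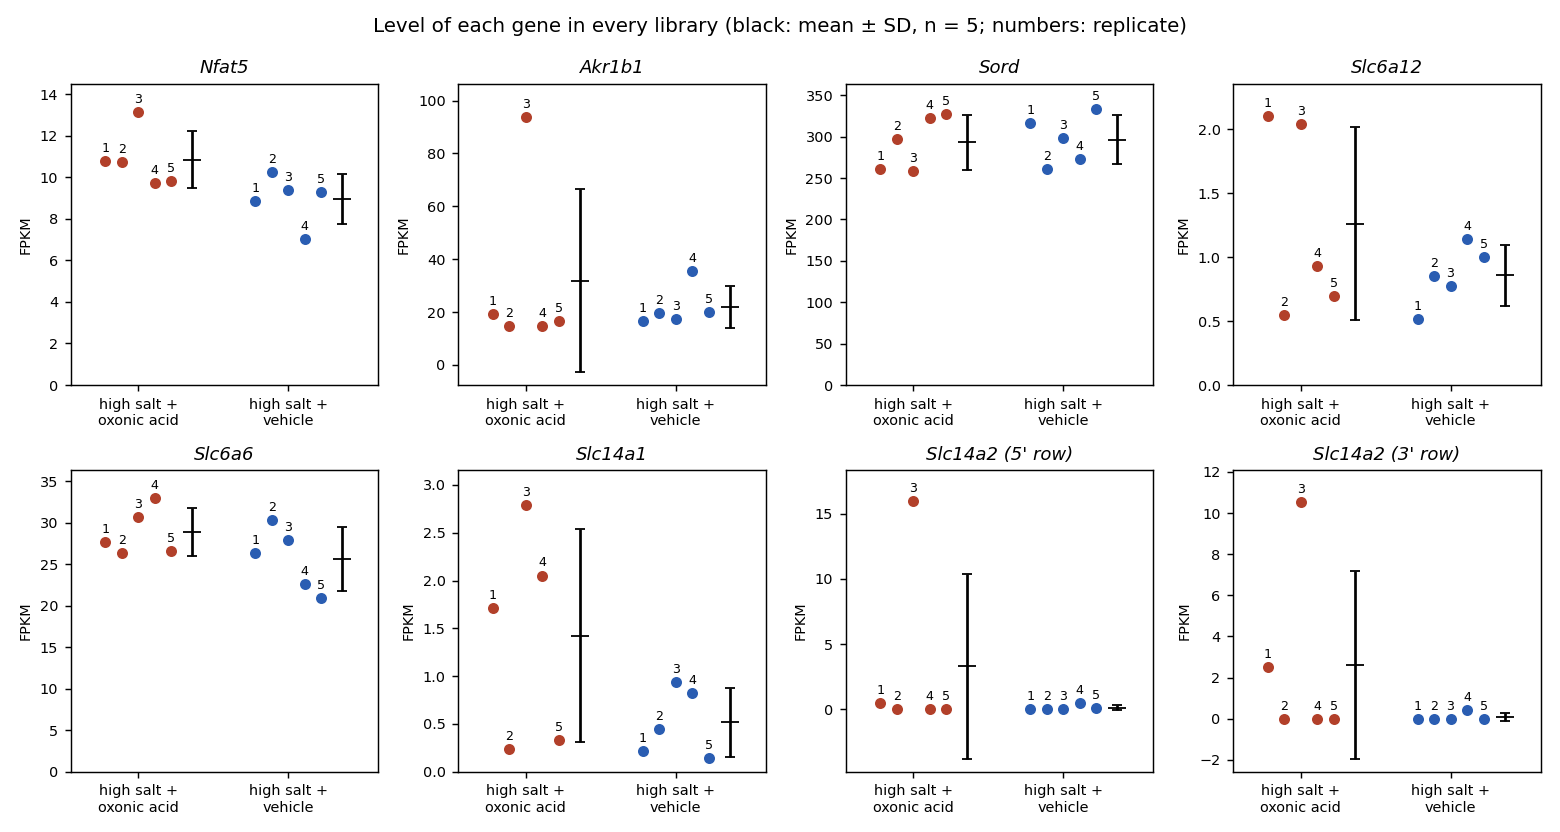
FPKM (vertical axes) of the 7 genes, with both table rows of Slc14a2, in 5 libraries of high salt with oxonic acid (left, red) and 5 of high salt with vehicle (right, blue); numbers are replicates and black bars the mean ± SD, which reach below 0 where 1 library is far above the rest. Oxonic acid library 3 is the highest point for Nfat5, Akr1b1, Slc14a1 and both rows of Slc14a2, while the Sord panel shows groups at the same level.

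Nfat5 (ENSRNOG00000011879, chromosome 19, 38446059 to 38533735 in the deposited coordinates, of unstated build) encodes the transcription factor itself. It measured 10.8, 10.7, 13.1, 9.73 and 9.83 FPKM in oxonic acid libraries 1 to 5, against 8.86, 10.2, 9.38, 7.01 and 9.29 FPKM in vehicle libraries 1 to 5. All 5 oxonic acid libraries lay above the vehicle median, and vehicle library 2 alone overlapped the lower end of the oxonic acid range. The means were 10.8 ± 1.37 FPKM under oxonic acid and 8.95 ± 1.20 FPKM under vehicle (± SD, n = 5 libraries each), a log2 difference of 0.26 (SE 0.11), which did not pass (limma adjusted p = 0.486). Its unadjusted p was 0.0305, and a two-sided exact permutation test over libraries gave p = 0.0317, where 0.00794 is the smallest p that 5 against 5 allows.

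The size of the Nfat5 difference rested in part on the libraries at either end. It was 0.20 (SE 0.10, unadjusted p = 0.0787) without oxonic acid library 3, 0.18 (SE 0.088, unadjusted p = 0.0630) without vehicle library 4, and 0.12 (SE 0.066, unadjusted p = 0.114) without both. Library numbers given in the descriptions form 3 consecutive runs, not called batches in the labels: A with 3 oxonic acid libraries and 0 of vehicle, B with 1 of oxonic acid and 3 of vehicle, and C with 1 and 2. The Nfat5 difference was 0.04 within run B and 0.27 within run C, and 0.15 (SE 0.13) with the runs as a block. Since run A held 0 vehicle libraries, any difference with the runs as a block, here and below, rests on runs B and C. Oxonic acid libraries 1 to 3 do not enter it, and run A cannot be told apart from treatment.

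The enzymes of the sorbitol pathway behaved unlike each other. Akr1b1 (ENSRNOG00000009513, chromosome 4, 61706864 to 61720956), aldose reductase, turns glucose into sorbitol. It measured 19.1, 14.8, 93.7, 14.9 and 16.8 FPKM in oxonic acid libraries 1 to 5, against 16.6, 19.5, 17.5, 35.7 and 20.1 FPKM in vehicle libraries 1 to 5. One library in each group stood far above the rest, oxonic acid library 3 and, less far, vehicle library 4, and the remaining 8 lay between 14.8 and 20.1 FPKM.

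With all libraries Akr1b1 averaged 31.9 ± 34.6 FPKM under oxonic acid and 21.9 ± 7.84 FPKM under vehicle (± SD, n = 5 libraries each), which on the log2 scale differ by 0.14 (SE 0.46; limma adjusted p = 0.936). Without oxonic acid library 3 the oxonic acid mean was 16.4 ± 2.02 FPKM (SD, n = 4) and the difference turned to -0.36 (SE 0.20, limma adjusted p = 0.672). Without both outlying libraries it was -0.17 (SE 0.096, limma adjusted p = 0.685), from means of 16.4 ± 2.02 FPKM under oxonic acid and 18.4 ± 1.63 FPKM under vehicle (SD, n = 4 each). The sign of the Akr1b1 difference was thus set by 1 library. Akr1b1 has close relatives, named here after their values were seen, whose reads the counting could confuse with it: the pseudogene Akr1b1-ps2 measured 1.42 FPKM in oxonic acid library 3 and 0.266 to 0.668 FPKM in the other libraries, while Akr1b8 and Akr1b7 peaked in vehicle libraries, at 4.54 and 0.654 FPKM.

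Sord (ENSRNOG00000017291, chromosome 3, 114176309 to 114207366), sorbitol dehydrogenase, oxidises sorbitol to fructose. It measured 260.5, 297, 258, 323 and 327 FPKM in oxonic acid libraries 1 to 5, against 316, 261, 299, 273 and 333 FPKM in vehicle libraries 1 to 5. The groups covered nearly the same range, and oxonic acid library 3, highest for Akr1b1, was the lowest of all 10 for Sord. The means were 293 ± 32.9 FPKM under oxonic acid and 296 ± 29.7 FPKM under vehicle (± SD, n = 5 libraries each), which on the log2 scale differ by -0.018 (SE 0.091; limma adjusted p = 0.965). A pseudogene on the opposite strand, AC112350.1, overlaps Sord and averaged 0.542 FPKM; the labels do not settle whether counting used strand.

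Among the osmolyte carriers, Slc6a6 (ENSRNOG00000009019, chromosome 4, 123642210 to 123713464), the taurine transporter, had the higher level. It measured 27.7, 26.4, 30.7, 33.0 and 26.6 FPKM in oxonic acid libraries 1 to 5, against 26.3, 30.4, 28.0, 22.7 and 21.0 FPKM in vehicle libraries 1 to 5. All 5 oxonic acid libraries exceeded the vehicle median, vehicle libraries 1, 4 and 5 lay below every oxonic acid library, library 1 only just, and vehicle libraries 2 and 3 lay within the oxonic acid range. The means were 28.9 ± 2.90 FPKM under oxonic acid and 25.7 ± 3.84 FPKM under vehicle (± SD, n = 5 libraries each), which on the log2 scale differ by 0.17 (SE 0.10; limma adjusted p = 0.601). The difference was 0.23 within run B and 0.28 within run C, and 0.25 (SE 0.080, limma adjusted p = 0.718) with the runs as a block. It was 0.11 without vehicle library 5 and 0.11 without both oxonic acid library 3 and vehicle library 4.

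The promoter of Slc6a6 is shown because it was the single entry among those of these genes that held a match to the tonicity-responsive element, the site NFAT5 is known to bind. RefSeq promoter sequences (GRCr8) were at hand for 6 of the 8 genes, as 7 entries, of which Slc14a2 has 2. In the 250 bases before each start, TGGAAA, the core of the element, was sought on both strands, as was the longer TonE consensus, which begins with that core. The core was found in 1 of the 7 entries and in 19.7% of all 33469 promoters, and the consensus in 1 of the 7 and in 5.17% of all. The Slc6a6 stretch lies at chr4:125752252-125752501 on the plus strand, whereas the deposited coordinates place the gene on the minus strand. Capitals mark the consensus match, which runs on the opposite strand from 161 to 151 bases before the start and contains the core.
Slc6a6: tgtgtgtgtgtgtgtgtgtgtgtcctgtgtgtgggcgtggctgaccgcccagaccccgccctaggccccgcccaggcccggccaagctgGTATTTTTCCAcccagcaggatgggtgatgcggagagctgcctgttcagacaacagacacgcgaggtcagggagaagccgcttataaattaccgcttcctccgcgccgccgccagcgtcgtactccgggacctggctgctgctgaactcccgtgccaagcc
A match of letters is a description of this window, and the data do not show whether the factor binds there.

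Slc6a12 (ENSRNOG00000013547, chromosome 4, 153921115 to 153941391), the betaine transporter BGT1, was near the low end. It measured 2.10, 0.544, 2.04, 0.928 and 0.694 FPKM in oxonic acid libraries 1 to 5, against 0.518, 0.852, 0.776, 1.14 and 1.002 FPKM in vehicle libraries 1 to 5. Oxonic acid libraries 1 and 3 were the highest of all 10, and the other 3 oxonic acid libraries lay within the vehicle range. The means were 1.26 ± 0.753 FPKM under oxonic acid and 0.859 ± 0.237 FPKM under vehicle (± SD, n = 5 libraries each), which on the log2 scale differ by 0.29 (SE 0.27; limma adjusted p = 0.746). The difference was 0.24 within run B and -0.40 within run C, and it was 0.12 without oxonic acid library 1 and 0.13 without oxonic acid library 3.

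The urea transporters varied most from library to library. Slc14a1 (ENSRNOG00000016753, chromosome 18, 74461055 to 74485139), which encodes UT-B, measured 1.71, 0.234, 2.79, 2.05 and 0.332 FPKM in oxonic acid libraries 1 to 5, against 0.221, 0.447, 0.943, 0.828 and 0.140 FPKM in vehicle libraries 1 to 5. Oxonic acid libraries 1, 3 and 4 lay above every vehicle library, and oxonic acid libraries 2 and 5 lay within the vehicle range. The means were 1.42 ± 1.11 FPKM under oxonic acid and 0.516 ± 0.358 FPKM under vehicle (± SD, n = 5 libraries each), which on the log2 scale differ by 0.75 (SE 0.44; limma adjusted p = 0.595). Without oxonic acid library 3 it was 0.50 (SE 0.43), and it was 1.36 within run B but -0.15 within run C.

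The 4 libraries with the most Slc14a1 were oxonic acid libraries 1, 3 and 4 and vehicle library 3. Of 7 markers of the papillary surface and urothelium with a row, 5 had their 4 highest values in the same libraries, namely Upk1a, Upk1b, Upk2, Upk3a and Krt5, and Upk3b and Krt7, both highest in vehicle library 4, did not. The uroplakin gene Upk1a, for example, measured 1.57, 4.52 and 9.68 FPKM in oxonic acid libraries 1, 3 and 4 and 7.44 FPKM in vehicle library 3, against at most 1.03 FPKM elsewhere, so the order within the 4 was not that of Slc14a1. This match was seen in the data first, so the cut at 4 libraries was not chosen beforehand. For Slc14a1, vehicle library 4 came close behind vehicle library 3, with 45 reads against 54. The share of all genes with the same 4 libraries at the top is not given here. Of the 8 listed markers 5 were tested, 4 of them with a difference above 0 and 0 past the threshold, and 4 of the 7 with a row, among them Upk2 and Upk3a, were at 0 in at least 1 library. The median difference of the 5 was 0.87 on the log2 scale, 0.37 without oxonic acid library 4, 1.43 without vehicle library 3 and 2.06 with voom on reads. Their summed level was 77.9 to 124 FPKM under oxonic acid and 76.0 to 110 FPKM under vehicle, most of it Krt7, which is not confined to that tissue. Their part in the Slc14a1 values was not tested. In bulk RNA, fewer cells of a type and less RNA per cell cannot be told apart.

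Slc14a2 occupied 2 rows of the deposited table, which lie one after the other on the minus strand of chromosome 18. The row with the higher mean (ENSRNOG00000061714, 74546220 to 74688551) covers the 5' part of the gene and the other (ENSRNOG00000056021, 74508069 to 74542077) the 3' part. In the rat, the long form UT-A1 is transcribed across both parts, UT-A3 ends within the 5' part, and UT-A2, the form of the thin descending limb, is read from an internal start and consists of the 3' part. RefSeq lists 2 starts for the gene in GRCr8, each shown with the 250 bases before the start on the minus strand. The upstream entry is chr18:74314547-74314796 and the internal one chr18:73921585-73921834. These starts lie farther apart than the starts of the 2 rows in the deposited coordinates. The upstream entry is therefore not taken as the promoter of the 5' row, and use of either start was not tested. Neither holds the TGGAAA core, so no letters are in capitals.
Slc14a2 upstream start: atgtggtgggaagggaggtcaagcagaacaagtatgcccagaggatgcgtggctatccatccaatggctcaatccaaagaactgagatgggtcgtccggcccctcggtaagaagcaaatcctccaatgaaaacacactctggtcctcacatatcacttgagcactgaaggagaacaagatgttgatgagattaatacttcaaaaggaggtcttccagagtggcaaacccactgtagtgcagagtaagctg
Slc14a2 internal start: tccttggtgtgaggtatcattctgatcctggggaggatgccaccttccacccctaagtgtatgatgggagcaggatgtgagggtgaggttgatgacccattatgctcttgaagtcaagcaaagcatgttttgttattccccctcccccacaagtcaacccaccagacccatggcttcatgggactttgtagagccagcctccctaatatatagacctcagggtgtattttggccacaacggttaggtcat

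The 5' row of Slc14a2 measured 0.454, 0, 16.0, 0 and 0 FPKM in oxonic acid libraries 1 to 5, against 0, 0.0292, 0, 0.505 and 0.0687 FPKM in vehicle libraries 1 to 5. Nearly all of its signal was in oxonic acid library 3, at 31.6 times the next highest library. The 3' row measured 2.52, 0, 10.6, 0 and 0 FPKM in oxonic acid libraries 1 to 5, against 0, 0, 0, 0.445 and 0 FPKM in vehicle libraries 1 to 5. It was thus detected in 3 libraries, those with the most of the 5' row, and was second highest in oxonic acid library 1. Reads worked back from FPKM put 0 reads in both rows in 5 libraries, and a count of 0 allows up to 3 reads, worth 0.0915 to 0.115 FPKM in those libraries for the 5' row and 0.0564 to 0.0708 FPKM for the 3' row. Such limits, like the intervals below, cover counting error only.

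The proportion of the 2 rows differed between libraries. Oxonic acid library 1 had 13 reads in the 5' row and 117 in the 3' row, so the 3' row held 90.0% of its reads (exact binomial 95% interval 83.5 to 94.6%). Oxonic acid library 3 had 471 and 504 reads, or 51.7% in the 3' row (48.5 to 54.9%), and vehicle library 4 had 14 and 20 reads, or 58.8% (40.7 to 75.4%). Per length, the 3' row stood at 5.55 times the 5' row in oxonic acid library 1, at 0.660 times in oxonic acid library 3 and at 0.881 times in vehicle library 4. The interval of oxonic acid library 1 did not overlap those of the other 2 libraries. These are single libraries, so the difference has no replicate check.

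**Figure D2:**
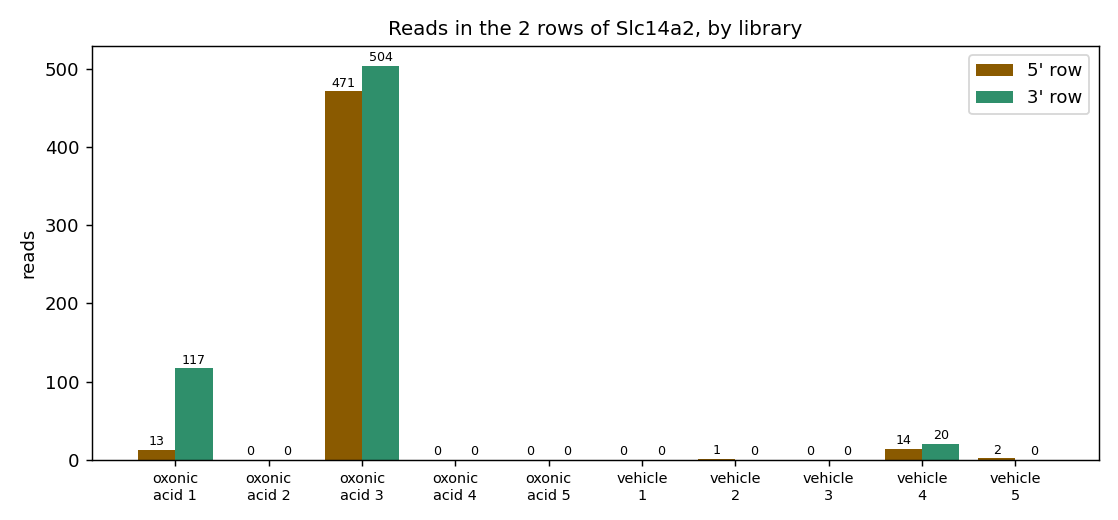
Reads (vertical axis) in the 5' row (brown) and the 3' row (green) of Slc14a2 in each library, worked back from FPKM and gene length. Oxonic acid library 3 holds 471 and 504 reads, oxonic acid library 1 holds 13 and 117, and 5 of the 10 libraries hold 0 in both rows.

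Between the groups, the 5' row averaged 3.29 ± 7.10 FPKM under oxonic acid and 0.121 ± 0.217 FPKM under vehicle (± SD, n = 5 libraries each), which on the log2 scale differ by 0.94 (SE 0.86; limma adjusted p = 0.738). The 3' row averaged 2.61 ± 4.57 FPKM under oxonic acid and 0.0890 ± 0.199 FPKM under vehicle (± SD, n = 5 libraries each), which on the log2 scale differ by 1.23 (SE 0.80; limma adjusted p = 0.632). Both rows entered the test only through oxonic acid library 3, so that the tests support nothing about the groups. With so many values at 0 these log2 differences depend on the pseudocount and are no bound on a fold. Without oxonic acid library 3 they were -0.022 (SE 0.31) for the 5' row and 0.46 (SE 0.54) for the 3' row. Oxonic acid libraries 2, 4 and 5 and vehicle libraries 1 and 3 had no read in either row.

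**Figure D3:**
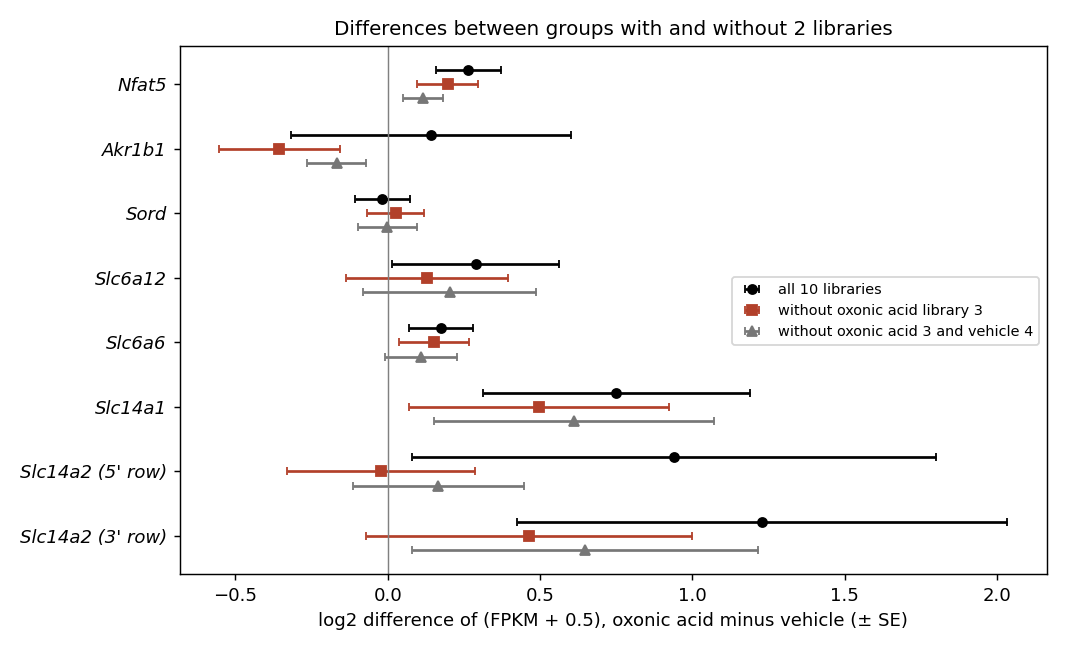
Log2 difference (horizontal axis, oxonic acid minus vehicle, points, with SE as bars) of each gene with all 10 libraries (black), without oxonic acid library 3 (red) and without that library and vehicle library 4 (grey). Akr1b1 goes from 0.14 to -0.36 without oxonic acid library 3, and the 5' row of Slc14a2 from 0.94 to -0.022. Nfat5, Slc6a6, Slc6a12, Slc14a1 and the 3' row of Slc14a2 stay above 0.

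Markers of other kidney regions differed between the same libraries. Of 19 inner medulla and thin limb markers, all with a row, 17 were tested, 9 with differences above 0 and 8 below, and 0 passed. Their median was 0.03 on the log2 scale, against 0.0053 over all genes. It was -0.088 with the runs as a block, which leaves out oxonic acid libraries 1 to 3. The summed level of the 19 markers was 197 to 375 FPKM under oxonic acid and 179 to 349 FPKM under vehicle. The highest sum, 375 FPKM, was that of oxonic acid library 3, where 7 of the 19 had their highest value. Oxonic acid library 1 came next at 356 FPKM, with 4 of the 19 highest there, and then vehicle library 4 at 349 FPKM. Most of the 375 FPKM was Cryab (140) and S100a6 (101), which peaked in oxonic acid library 1 (183) and vehicle library 4 (116). Of the genes known from inner medulla and thin limbs, the bicarbonate transporter family member Slc4a11 measured 6.30 FPKM and the signalling gene Wnt7b 3.15 FPKM in oxonic acid library 3. These were the highest of all 10 libraries, with oxonic acid library 1 next at 4.43 FPKM for Slc4a11 and 2.15 FPKM for Wnt7b. Sptssb and Corin were at 0 in at least 1 library. Among the smallest unadjusted p in the list were those of Cldn4 (log2 difference -0.65), Aqp4 (0.92) and Fxyd5 (-0.21), with limma adjusted p of 0.370 to 0.505, with differences of both signs. Several listed genes, such as Cldn4 and S100a6, are also expressed elsewhere in the kidney.

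Oxonic acid library 1, where the 3' row held most Slc14a2 reads, stood out for markers of other segments. It had the highest value of 9 of the 10 thick ascending limb markers, for example Slc12a1, the sodium-potassium-chloride cotransporter, at 236 FPKM against 60.5 to 158 FPKM in the other 9 libraries. Of 7 straight proximal segment markers 4 were highest there, among them Slc7a13, at 1627 FPKM in oxonic acid library 1 against 245 to 1155 FPKM elsewhere. Atp11a and Slc5a8 were highest in oxonic acid library 4 and Cyp7b1 in vehicle library 2. Slc7a13 made up most of the summed level of the straight proximal list. Summed levels of the thick ascending limb list were 1555 to 3094 FPKM under oxonic acid and 1376 to 2082 FPKM under vehicle, and those of the straight proximal list 935 to 1908 FPKM under oxonic acid and 399.8 to 1192 FPKM under vehicle, with no listed gene at 0 in any library.

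**Figure D4:**
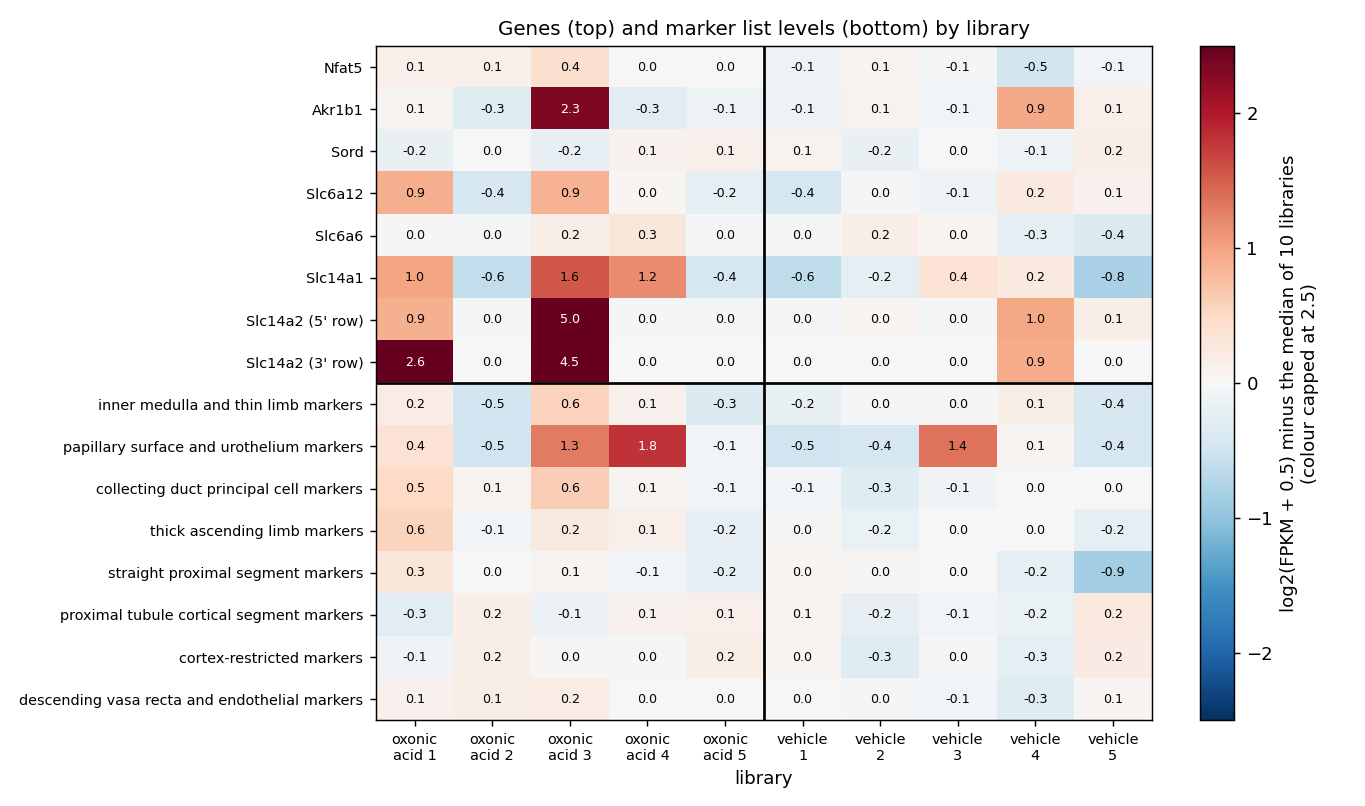
Log2(FPKM + 0.5) of each gene (top) and mean log2 level of 8 marker lists (bottom), each minus its median over the 10 libraries, by library, with oxonic acid libraries left of vehicle libraries and colour capped at 2.5. Akr1b1 stands out in oxonic acid library 3 and less in vehicle library 4. Both rows of Slc14a2 stand out in oxonic acid library 3. In oxonic acid library 1 and vehicle library 4 the 5' row stands at 0.891 and 0.966 and the 3' row at 2.59 and 0.919. Slc14a1 is high in oxonic acid libraries 1, 3 and 4.

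With the mean log2 level of the inner medulla and thin limb list as a covariate, the difference was 0.25 (SE 0.11) for Nfat5, 0.15 (SE 0.098) for Slc6a6, 0.18 (SE 0.20) for Slc6a12 and -0.037 (SE 0.33) for Akr1b1. For the urea transporters it was 0.53 (SE 0.18) for Slc14a1, 0.60 (SE 0.61) for the 5' row of Slc14a2 and 0.89 (SE 0.52) for the 3' row. With this term no gene passed (limma adjusted p of 0.362 for Slc14a1 and above for the others). The list held differences of both signs and genes also expressed elsewhere, so the part of medulla in these values was not tested. Red cells carry UT-B, and erythroid markers summed to 46.6 to 88.1 FPKM under oxonic acid and 40.6 to 62.2 FPKM under vehicle. Of the 5 with a row, Ahsp and Epb42 were highest in oxonic acid library 3, Hbb and Alas2 in oxonic acid library 5 and Slc4a1 in oxonic acid library 2. The part of red cells in the Slc14a1 values was not tested. The list names 9 genes, of which Slc4a1 is also expressed by kidney intercalated cells, and Alas2 and Ahsp were at 0 in at least 1 library. Endothelial markers summed to 746 to 924 FPKM under oxonic acid and 639 to 743 FPKM under vehicle, most of it Aqp1, which proximal tubules also express; 7 of the 8 tested had a difference above 0, and Slc26a3 was at 0 in at least 1 library.

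Other genes of osmolyte handling gave the following picture. Of 28 such genes 27 were tested, 18 with a difference above 0 and 9 below, with a median of 0.09 on the log2 scale against 0.0053 over all genes, and 0 passed. The smallest unadjusted p were those of Slc6a13, a GABA carrier, and of Slc5a11, a myo-inositol cotransporter. Slc6a13 measured 25.8 ± 1.95 FPKM under oxonic acid and 21.6 ± 1.86 FPKM under vehicle (± SD, n = 5 libraries each, limma adjusted p = 0.367). Slc5a11 measured 30.02 ± 1.85 FPKM under oxonic acid and 26.2 ± 2.31 FPKM under vehicle (± SD, n = 5 libraries each, limma adjusted p = 0.417). Slc38a2, an amino acid carrier, had a log2 difference of 0.19 and Pnpla6, which releases glycerophosphocholine, one of 0.22, and neither passed (limma adjusted p = 0.490 and 0.491). An unadjusted limma p under 0.05 was reached by 4 of the 27, all with a difference above 0, and by 4.32% of all genes in that direction. Lists of other kinds had larger shares above 0: 6 of 18 vasopressin and countercurrent genes, 5 of 10 collecting duct markers and 3 of 8 endothelial markers. These 3 lists share some genes and had 0 below. Of 17 inner medulla and thin limb markers 1 was above 0 and 3 below, and of 22 NFAT5 regulators and relatives 0 and 2.

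Regulators and relatives of NFAT5 were split nearly evenly. Of 24 listed genes 22 were tested, 12 with a difference above 0 and 10 below, with a median of 0.0082 on the log2 scale, and 0 passed. Parp1, which can bind and modulate NFAT5, measured 17.6 ± 1.31 FPKM under oxonic acid and 19.6 ± 0.814 FPKM under vehicle (± SD, n = 5 libraries each; limma adjusted p = 0.452). The scaffold gene Ccm2 had a log2 difference of -0.17, the NFAT family member Nfatc3 0.16 and the stress kinase Mapk14 0.095, with limma adjusted p of 0.487 to 0.581. Of 19 other genes known to respond to tonicity 18 were tested, 10 above 0 and 8 below, with a median of 0.0040, and 0 passed. Those with the smallest unadjusted p were Aqp1 (log2 difference 0.27), Ranbp3l (0.28), Gadd45a (-0.27) and Aqp2 (0.52), with limma adjusted p of 0.397 to 0.489.

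Genes of urine concentration and of urea formation gave further context. All 18 vasopressin and countercurrent genes were tested, 15 with a difference above 0 and 3 below, and 0 passed. Their median was 0.25 on the log2 scale. It was 0.077 with the runs as a block, which leaves out oxonic acid libraries 1 to 3. Of the 18 genes, 10 were highest in oxonic acid library 1 and 5 in oxonic acid library 3. The collecting duct water channel Aqp2 measured 134, 82.3, 142, 78.2 and 61.4 FPKM in oxonic acid libraries 1 to 5, against 62.6, 62.3, 71.7, 75.7 and 59.3 FPKM in vehicle libraries 1 to 5, so oxonic acid libraries 1 and 3 stood above the rest as they did for Slc6a12. Aqp4 had a log2 difference of 0.92, the basolateral water channel Aqp3 0.35 and the channel subunit Bsnd 0.24, with limma adjusted p of 0.417 to 0.479. Of 10 genes of urea and arginine metabolism 8 were tested, 6 above 0 and 2 below, with a median of 0.06, and 0 passed; the smallest unadjusted p were those of Arg2, Asl, Gatm and Ass1, with log2 differences of 0.21, -0.11, 0.14 and -0.078 and limma adjusted p of 0.748 to 0.848.

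The remaining marker lists also had 0 genes past the threshold. Of 10 collecting duct principal cell markers 10 had a difference above 0, with a median of 0.32 on the log2 scale. That median was 0.075 with the runs as a block, which leaves out oxonic acid libraries 1 to 3. These markers summed to 360.5 to 491 FPKM under oxonic acid and 273 to 373 FPKM under vehicle. The part of these and the other segment markers in the values of the 7 genes was not tested. The covariate above used the inner medulla and thin limb list only. Of 10 markers of the cortical proximal tubule 7 were above 0, with a median of 0.08, and of 9 tested genes typical of cortex 6 were above 0, with a median of 0.16. In these lists the glucose transporter gene Slc2a2, at 49.8 ± 7.39 FPKM under oxonic acid and 65.9 ± 3.84 FPKM under vehicle (± SD, n = 5 libraries each), and the magnesium channel gene Trpm6, at 4.39 ± 0.267 FPKM under oxonic acid and 3.35 ± 0.397 FPKM under vehicle (± SD, n = 5 libraries each), had groups that did not overlap, and neither passed (limma adjusted p = 0.333 for both).

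Profiles over the 10 libraries were compared with those of 11588 protein-coding genes by the root mean square difference of standardised log2 values, where 0 means the same shape. The nearest to Nfat5 were Nfe2l1 (0.234), Hip1 (0.287) and Papola (0.335). Akr1b1 was nearest to Lypd2 (0.259), Gpha2 (0.261) and Serinc2 (0.366), and the 5' row of Slc14a2 to Gpha2 (0.198), Qsox1 (0.202) and Lypd2 (0.218). Gpha2 measured 34.0 FPKM in oxonic acid library 3 and 1.70 FPKM in vehicle library 4, and at most 0.329 FPKM in the other 8 libraries. At the high end this is the order of libraries seen for Akr1b1 and the 5' row of Slc14a2. The 3' row of Slc14a2 was nearest to Ptgs1 (0.354), Loxl4 (0.370) and Qsox1 (0.374), and among the nearest to Slc14a1 were Plet1 (0.390) and Atp9a (0.416). Nearest to the others were Tspan12 (0.348) for Slc6a12, Zfp597 (0.422) for Slc6a6 and Lgals8 (0.343) for Sord.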

How the data were processed

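RNA-seq of kidney cortex was compared between 5 oxonic acid and 5 vehicle libraries. The deposited table gives FPKM computed by the authors; per the submitters' processing notes they used HISAT2 2.0.5, featureCounts 1.5.0-p3, StringTie 1.3.3b and fastp, with no build or annotation stated there. Per the labels' protocols, mRNA was selected with poly-T beads. Multiplying FPKM by gene length gave steps of 1 read in each library (to within 0.01 of a read for 100% of values), so reads could be worked back. No pair of libraries agreed within sampling noise (lowest chi-square per degree of freedom 5.00).

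Table columns were paired with samples through their description labels. The test took 14508 of 32545 genes, those averaging 0.5 FPKM or more, on log2(FPKM + 0.5) with limma 3.58.1 (eBayes with trend) in R 4.3.3, two-sided, with Benjamini-Hochberg adjustment; the procedure was tested on simulated data. Where a symbol repeats, the row with the highest mean was used. Genes eligible to be named were all 8, up to 4 genes per list by unadjusted p, and the 3 nearest profiles among protein-coding genes averaging 1 FPKM or more. The genes and lists were chosen with earlier results of these data known. Some list genes were not analysed here, and a few genes that the rule names are not reported here. Promoter sequences are from RefSeq (GRCr8). Exact permutation tests used scipy 1.17.1 and figures matplotlib 3.10.9 in Python 3.11.15.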

Additional observations from a re-analysis of the deposited data

Results flagged for a closer look

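In each group of 5 libraries a sample was singled out when its gap to the nearest other exceeded 0.71 of the group's range. Chance alone does that in about 1 of 20 groups of normally distributed values. That rate does not hold for FPKM with many values at 0, as in both rows of Slc14a2. In all, 34 groups were examined and 6 values met the rule. All 6 concern oxonic acid library 3 or vehicle library 4. Akr1b1 was 93.7 FPKM in oxonic acid library 3, with the next oxonic acid library at 19.1 FPKM, and 35.7 FPKM in vehicle library 4, with the next vehicle library at 20.1 FPKM. The 5' row of Slc14a2 was 16.0 FPKM in oxonic acid library 3, with the next at 0.454 FPKM, and 0.505 FPKM in vehicle library 4, with the next at 0.0687 FPKM. The 3' row of Slc14a2 was 10.55 FPKM in oxonic acid library 3, with the next at 2.52 FPKM, and 0.445 FPKM in vehicle library 4, with the other 4 vehicle libraries at 0. For the vehicle libraries of the 3' row the gap was the whole range by construction, since the others were at 0. The 2 rows belong to 1 gene, so their values are not independent of each other.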

How the results depend on the processing

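In 22 alternatives fitted across all genes none of the 7 genes passed, and over all genes 0 passed except 1, Tap2, with limma array weights; leaving out 1 library at a time gave 0 to 1 gene over all, the 1 being SNORA3 without vehicle library 1. As reported, 1377 genes had an unadjusted p under 0.05, and 1414 with voom on reads. Nfat5 (0.12 to 0.31 on the log2 scale), Slc6a6 (0.11 to 0.25) and Slc14a1 (0.50 to 1.301) kept a difference above 0 in every alternative run; for Slc14a1 there is no value at a minimum mean of 1. With the number runs as a block the difference turned for Akr1b1 (-0.44), Slc6a12 (-0.058), Sord (0.13) and both rows of Slc14a2 (-0.30 for the 5' row and -0.22 for the 3' row). With the medulla level as a covariate it turned for Akr1b1 (-0.037) and Sord (0.013), and scaled to nuclear genes for Sord (0.00165). Without both oxonic acid library 3 and vehicle library 4, an alternative chosen after seeing the data, it was -0.17 for Akr1b1. With the runs as a block, oxonic acid libraries 1 to 3 do not enter the difference, since run A held no vehicle library. The cause of these turns was otherwise not tested. Leaving out 1 library at a time gave -0.36 to 0.33 for Akr1b1, -0.062 to 0.026 for Sord, -0.022 to 1.24 for the 5' row and 0.46 to 1.58 for the 3' row of Slc14a2, and 0.12 to 0.45 for Slc6a12. The labels do not say whether replicate numbers pair the samples. The correlations of same-numbered libraries were -0.0132 to 0.203, which cannot settle it. With a replicate block 0 genes passed and Nfat5 had an unadjusted limma p of 0.0162, its smallest in any alternative. Scaled to summed FPKM its unadjusted limma p was 0.0619, and the largest in any alternative was 0.283. Depth limits Slc14a2 and, at under 3 FPKM, Slc14a1 and Slc6a12.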
